A study of Mus musculus with 12 samples.

Results

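The receptor chains and kinases through which blasts sense interferon (IFN) were followed in MLL-AF9-driven murine acute myeloid leukemia (AML) with and without STAT3β. The set consists of 8 genes chosen by symbol from the 24454 genes of the deposited table, namely the type I receptor chains Ifnar1 and Ifnar2, the type II receptor chains Ifngr1 and Ifngr2, and the Janus kinases (JAKs) Jak1, Jak2, Jak3 and Tyk2. All 8 genes were present and all 8 passed the filter on low values. None of the 8 passed the test between genotypes or between organs when all libraries were used, and Jak1, Jak2 and Tyk2 passed one when a single spleen library was left out, which raised the share of all genes called to 16.4% between genotypes in spleen and to 5.21% between organs in wildtype.

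IFN-α and IFN-β bind a receptor made of IFNAR1, which is associated with TYK2, and IFNAR2, which is associated with JAK1. IFN-γ binds IFNGR1, which is associated with JAK1, and the signal requires IFNGR2, which brings JAK2. The kinases phosphorylate transcription factors of the STAT family, which enter the nucleus and raise the transcription of IFN-stimulated genes. JAK3 is not part of either receptor, since it pairs with the common γ chain (Il2rg) of the receptors for IL-2, IL-4, IL-7 and related cytokines.

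Every library, controls included, comes from cells that carry MLL-AF9 on a retrovirus marked by the fluorescent protein Venus. The cells of origin were taken from fetal liver, and their donors were either wildtype (WT) or lacked STAT3β (Δβ). The cells were injected into young adult male NOD.Cg-Prkdcscid Il2rgtm1Wjl/SzJ (NSG) mice, which lack T, B and NK cells, and Venus+ blasts were sorted from the spleen (SP) and bone marrow (BM) of diseased animals. No further treatment is given in the labels. The 4 groups, WT SP, Δβ SP, WT BM and Δβ BM, hold 3 libraries each. How many independently transformed lines stand behind these libraries, and whether SP and BM libraries of one number come from one animal, was not stated, so p-values measure only the spread between these samples.

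Library depth was 9001051 to 13859727 reads on genes, and 1 read was worth 0.775 to 1.17 normalized counts. The lowest count of any of the 8 genes in any library was 417 reads and the highest 7999. The values are per gene and do not separate the α and β transcripts of Stat3, so the genotype could not be checked from them. Pearson's r between replicates over 11476 genes was 0.897 to 0.964 in WT SP and 0.929 to 0.968 in the other groups. WT SP replicate 3 stood apart in its markers, with a sum of 176800 normalized counts over 12 markers of immature blasts (among them Mpo and Elane) against 42359 and 49992 in the other WT SP libraries. The 12 markers did not all go the same way. Between genotypes in SP, with all libraries, 8 had a positive log2 fold change and 4 a negative one. Calls of members, and calls of the gene lists between genotypes in SP, that changed without this library are given with and without it. Elane, a granule protease of immature myeloid cells, was present in every library at 11112 to 72724 normalized counts. Erythroid markers summed to 5 to 15 normalized counts in every library and megakaryocyte markers to 50 to 107. Other lists had higher sums. Macrophage markers summed to 3706 to 9417 normalized counts and stromal and endothelial markers to 807 to 2546. T, NK and B cell markers summed to 321 to 1228, with 321, 492 and 1228 in WT SP and 1058 in Δβ BM replicate 1. The part of such cells in the values of the members was not tested.

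The receptor genes Ifnar2, Ifnar1 and Ifngr2, lie with Il10rb, a chain of the IL-10 receptor, in a row on the plus strand of chromosome 16 within 192841 bases (GRCm38). Ifnar2 spans 91372783 to 91405589 and Il10rb starts 574 bases after its end, while Ifnar1 spans 91485238 to 91507441 and Ifngr2 91547072 to 91565623. Ifngr1 lies on chromosome 10 (19591949 to 19610229), Jak1 on chromosome 4 (101152367 to 101265282), Jak2 on chromosome 19 (29251828 to 29313080), Jak3 on chromosome 8 (71676296 to 71690575) and Tyk2 on chromosome 9 (21104068 to 21131243). Whether counting used strand is not given in the sources used here. Ifnar2 shares 9.46% of its exon bases with Gm21970, Jak3 7.55% with Insl3 and Tyk2 8.07% with 1700084C06Rik, so a part of their reads may belong to these neighbours.

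Promoters of RefSeq (GRCm38.p6, 250 bases before to 50 bases after the gene's start) were found for all 8 genes. Ifnar1 and Ifnar2 are shown because they were the only members with a STAT motif (TTCNNNGAA, both strands, a palindrome), Ifngr2 because among the members its level ran closest to that of Ifnar1, and Jak3 because its r over the libraries was negative with 6 of the 7 other members. Capitals mark the STAT motif and the SP1 motif GGGCGG, searched on both strands.
Ifnar1, chr16:91485199-91485226, plus strand: GGGCGGgggcgTTCACGGAAgGGGCGGg
Ifnar2, chr16:91372558-91372586, plus strand: ctgccaaggccTTCCTGGAAgaagagagt
Ifngr2, chr16:91547001-91547028, plus strand: cGGGCGGGGGCGGggccgggcgcggtgg
Jak3, chr8:71676158-71676184, plus strand: ttggtttttttCCGCCCgtaatttttt

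The STAT motif of Ifnar1 spans the RefSeq start and lies between SP1 motifs, and that of Ifnar2 begins 214 bases before the start. The STAT letters occurred in 8.30% of all 32851 promoters of the same length and in 2 of the 8 members. The SP1 letters occurred in all 8 members and in 35.7% of all promoters, with 4 matches each in Ifnar1 and Ifngr2. The core of the IFN-stimulated response element was found in 3.44% of all promoters and in 0 members, the AP-1 motif (TGANTCA) in 7.81% and 0, the E-box CACGTG in 7.15% and 0, and the ETS motif CCGGAAG in 8.86% and 1, Ifnar1. The members' promoters held 54.3% (Jak3) to 81.0% (Jak2) G and C and 9 to 44 CpG, beside medians of 52.7% and 7 CpG over all promoters.

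Per kilobase of all annotated exons, Ifngr1 was the highest of the 8 in every library, with a median of 1752 normalized counts per kb over the 12 libraries (1370.0 to 3202). Ifnar2 followed with 598 (456 to 796) and Jak1 with 446 (387 to 667). Jak2, Tyk2, Ifnar1 and Ifngr2 lay together at medians of 244, 239, 235 and 219 normalized counts per kb, and Jak3 was last at 185 (143 to 255). The ranges of these 5 genes overlapped one another, and so did those of Ifnar2 and Jak1. With the length of the RefSeq transcript in place of all exons, Ifngr1 again led at 2361 per kb, Jak1 (657) and Ifnar2 (653) were level, and the order below them changed to Ifnar1 (357), Tyk2 (343), Jak3 (246), Jak2 (244) and Ifngr2 (222). Among 11145 genes with a length, the mean level per kb of the 8 lay between percentiles 70.6 (Jak3) and 98.3 (Ifngr1).

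**Figure D1:**
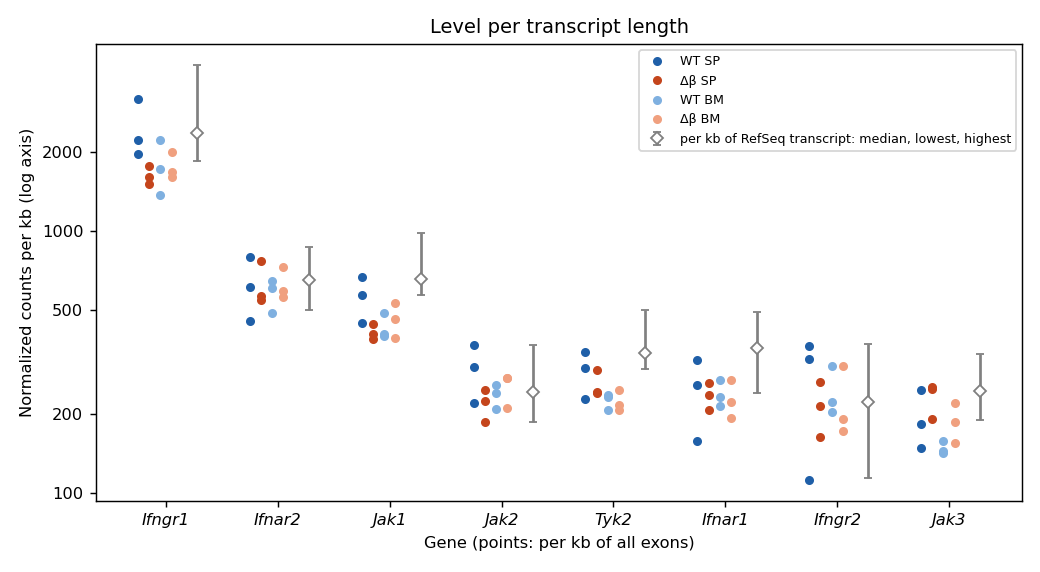
Normalized counts per kilobase on a log axis for the 8 genes, with 1 point per library (4 groups of 3, lengths from all annotated exons) and grey diamonds with bars for the median, lowest and highest library with RefSeq transcript lengths. Ifngr1 lies above all other members with either length, and the order of the lower genes depends on the length used.

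Ifnar1, the TYK2-associated chain of the type I receptor, was measured at 1924, 1544 and 944 normalized counts in WT SP and at 1559, 1236 and 1408 in Δβ SP, in the order of the replicate numbers, which is kept for all genes. In BM it had 1604, 1381 and 1274 in WT and 1601, 1320.0 and 1155 in Δβ. The WT SP libraries held both the highest and the lowest of the 12 values, and the genotypes overlapped in both organs. The log2 fold change, given as Δβ against WT throughout, was -0.02 (SE 0.23, limma adjusted p = 0.978) in SP and -0.07 (SE 0.23, limma adjusted p = 0.99997) in BM. The 95% interval in SP ran from -0.52 to 0.49.

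Ifnar2, the JAK1-associated chain that binds STAT2, had 2649, 2043 and 1518 normalized counts in WT SP and 2553, 1892 and 1816 in Δβ SP. In BM it had 2145, 2018 and 1616 in WT and 2428, 1964 and 1869 in Δβ. Replicate 1 was the highest library in each of the 4 groups, and the genotypes overlapped in both organs. The log2 fold change was 0.03 (SE 0.21, 95% interval -0.43 to 0.50, limma adjusted p = 0.953) in SP and 0.12 (SE 0.21) in BM.

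Ifngr1, the ligand-binding chain of the IFN-γ receptor, had 9116, 5589.6 and 6316 normalized counts in WT SP and 5070.3, 4298 and 4571 in Δβ SP. All Δβ SP values lay below all WT SP values, without overlap. Among the 11476 genes tested, 9.37% were lower in Δβ SP without overlap of the groups, and 2 of the 8 members, Ifngr1 and Jak1, were among them. The log2 fold change of Ifngr1 in SP was -0.56 (SE 0.21, 95% interval -1.03 to -0.10), a 0.676-fold level, with an unadjusted p of 0.0216 and an adjusted p of 0.281 from limma. In BM Ifngr1 had 4904, 6367 and 3900.4 in WT and 5708, 4569 and 4774 in Δβ, which overlapped, with a log2 fold change of 0.01 (SE 0.21).

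Ifngr2, the JAK2-associated chain of the same receptor, had 1372, 1230.5 and 423 normalized counts in WT SP and 1003, 619 and 811 in Δβ SP. In BM it had 1148, 767 and 837 in WT and 1151, 727 and 653 in Δβ. WT SP replicate 3 was the lowest of all libraries, and the genotypes overlapped in both organs. It varied most of the 8 genes, with the highest library 3.24 times the lowest, against 1.67 to 2.34 times for the other members. Its log2 fold change in SP was -0.17 with an SE of 0.40 (95% interval -1.06 to 0.72, limma adjusted p = 0.852), and in BM it was -0.14 (SE 0.40).

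Jak1, the kinase shared by both IFN receptors, had 4817, 4138 and 3234 normalized counts in WT SP and 3211, 2800.4 and 2937 in Δβ SP. The Δβ SP values all lay below the WT SP values, although WT SP replicate 3 and Δβ SP replicate 1 were almost level. The log2 fold change in SP was -0.43 (SE 0.16, 95% interval -0.79 to -0.07), a 0.743-fold level, with an unadjusted p of 0.0247 and an adjusted p of 0.286 from limma. In BM Jak1 had 2886, 2927 and 3521 in WT and 3856, 3348 and 2816 in Δβ, with overlap and a log2 fold change of 0.10 (SE 0.16).

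Jak2, the kinase of IFNGR2, had 1848, 1530.4 and 1115 normalized counts in WT SP and 1247, 942 and 1136 in Δβ SP. The groups overlapped through WT SP replicate 3, which lay below 2 of the 3 Δβ SP libraries. The log2 fold change in SP was -0.41 (SE 0.19, 95% interval -0.83 to 0.01, limma unadjusted p = 0.0531, limma adjusted p = 0.338). In BM Jak2 had 1213, 1056 and 1304 in WT and 1388, 1062 and 1381 in Δβ, with overlap and a log2 fold change of 0.10 (SE 0.19).

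Tyk2, the kinase of IFNAR1, had 2378, 2069 and 1565 normalized counts in WT SP and 2034, 1666 and 1649 in Δβ SP. In BM it had 1627, 1595 and 1424 in WT and 1497, 1704 and 1424 in Δβ. The genotypes overlapped in both organs, and the BM values were the narrowest of the JAKs after those of Jak3 in WT BM. The log2 fold change was -0.15 (SE 0.16, limma adjusted p = 0.625) in SP and -0.01 (SE 0.16) in BM.

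Jak3, the kinase of the common γ chain, had 797, 980.3 and 1326 normalized counts in WT SP and 1341, 1367 and 1024 in Δβ SP. In BM it had 779, 846 and 763 in WT and 1000.2, 1186 and 831 in Δβ. WT SP replicate 1, the highest library of the other 7 genes, was the lowest SP library of Jak3, and in BM only Δβ replicate 3 fell within the WT range. Jak3 was the member with the largest positive difference between genotypes, with a log2 fold change of 0.29 (SE 0.19, 95% interval -0.14 to 0.71, limma adjusted p = 0.478) in SP and 0.32 (SE 0.19, 95% interval -0.11 to 0.75) in BM.

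**Figure D2:**
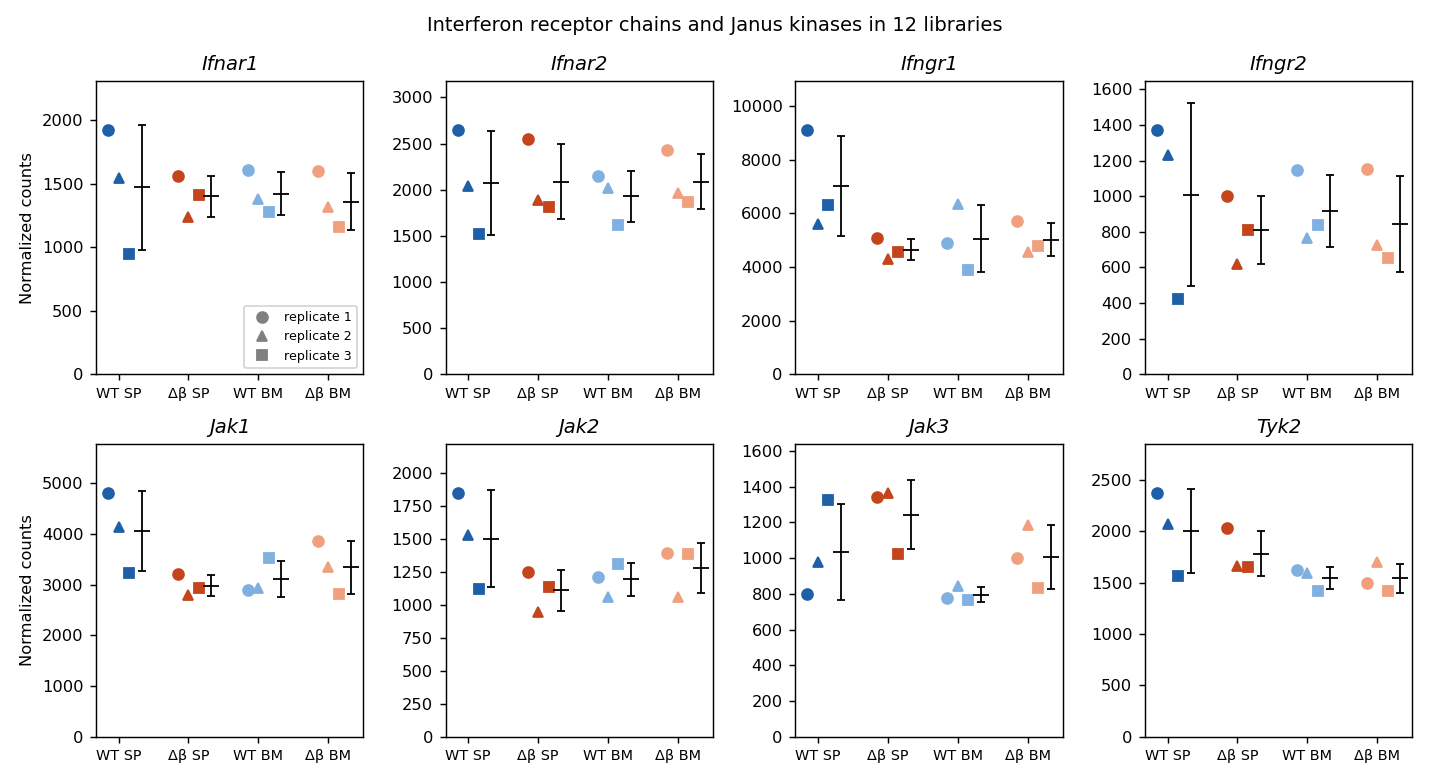
Normalized counts of the 8 genes in the 12 libraries, by group, with symbols for replicates 1 to 3 and black bars for the mean and SD of each group (n = 3), on axes that start at 0. WT SP replicate 1 is the highest library for 7 genes, WT SP replicate 3 is the lowest for Ifnar1, Ifnar2 and Ifngr2, and the SP groups are apart for Ifngr1 and Jak1.

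With all 12 libraries, 0 of the 8 members passed an adjusted p of 0.05 between genotypes in SP, where limma called 0.105% of all tested genes, and 0 passed in BM, where it called 0.0697% and gave each member an adjusted p of 0.99997. At an unadjusted p under 0.05, limma marked 2 of the 8 in SP (14.9% of all genes) and 0 in BM (2.59%). edgeR and DESeq2 on the recovered reads called 0 of the 8 in either organ, beside 0.0349% of all genes in SP and 0.0697% in BM by edgeR and 3.99% and 0.323% by DESeq2. The median log2 fold change of the 8 members was -0.16 in SP, beside -0.01 over all genes, and 0.05 in BM, beside -0.02. Among the settings tried, members were called in SP only without WT SP replicate 3. Without WT SP replicate 3, limma called 16.4% of all genes between genotypes in SP, 11.7% of all genes being lower in Δβ, and 2 members were lower, Jak1 at -0.58 (SE 0.15, limma adjusted p = 0.0300) and Jak2 at -0.61 (SE 0.17, limma adjusted p = 0.0352). In the same fit Ifngr2 stood at -0.71 (SE 0.27, limma adjusted p = 0.0955), Ifngr1 at -0.62 (SE 0.24, limma adjusted p = 0.0928), Jak3 at 0.48 (SE 0.18, limma adjusted p = 0.0842) and Tyk2 at -0.32 (SE 0.13, limma adjusted p = 0.113). Without WT SP replicate 1, the largest of the 8 differences were -0.36 for Ifngr1 and -0.30 for Jak1, with limma adjusted p of 0.657 and 0.661.

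Markers of mature neutrophils had a lower sum in Δβ SP than in WT SP. Their sum over 11 genes was 142701 to 354703 normalized counts in WT SP and 97985 to 120668 in Δβ SP, without overlap, while in BM it was 146395 to 418767 for WT and 117108 to 242261 for Δβ, with overlap. All 11 marker genes had a negative log2 fold change in SP, with a median of -1.08, and 0 passed limma's adjusted p. At an unadjusted p under 0.05 limma marked 2, beside 8.96% of all genes being lower. DESeq2 called 1, beside 3.99% of all genes in either direction. Without WT SP replicate 3 limma called 4, beside 11.7% of all genes being lower. The defining neutrophil marker Ly6g ranged from 61 to 606 normalized counts. With all libraries limma called 0 blast, macrophage or T, NK and B cell markers in SP. Without WT SP replicate 3 it called 3 of 12 blast markers higher, beside 4.7% of all genes, and 1 lower. Of 4 tested macrophage markers it then called 2 lower, and of 4 tested T, NK and B cell markers 1 lower. Rn45s, a precursor of ribosomal RNA, also differed between the SP groups, with 0.725% to 2.48% of the reads on genes in WT SP and 0.224% to 0.430% in Δβ SP, without overlap, while the BM groups overlapped (WT 0.178% to 0.352%, Δβ 0.278% to 0.655%). The normalized totals were 10912363 to 12565636 in WT SP and 10239195 to 10741816 in Δβ SP, also without overlap. The part of these cells, of Rn45s and of the totals in the SP values of the members was not tested. In bulk RNA, fewer cells of a type and less RNA per cell cannot be told apart.

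The difference between the genotype effects in SP and BM was -0.57 (SE 0.30) for Ifngr1, -0.53 (SE 0.23) for Jak1 and -0.51 (SE 0.27) for Jak2 on the log2 scale, each with a limma adjusted p of 0.926. By limma, an unadjusted p under 0.05 was reached by 1 of the 8 members, Jak1, and by 3.2% of all genes, and limma's adjusted p called 0% of all genes. When the SP and BM libraries of one genotype and number were averaged and 3 means compared with 3, 0 of the 8 members passed, beside 0.148% of all genes, and the values ran from -0.28 (SE 0.14) for Ifngr1 to 0.30 (SE 0.15) for Jak3.

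Between organs, 0 of the 8 members and 0% of all genes passed limma's adjusted p in either genotype. In WT, 3 members were marked at an unadjusted p under 0.05 (8.27% of all genes, 4.36% being higher in SP), with SP minus BM log2 differences of 0.47 (SE 0.21) for Ifngr1, 0.37 (SE 0.16) for Jak1 and 0.35 (SE 0.16) for Tyk2 and a limma adjusted p of 0.600 for each. The median of the 8 was 0.33 in WT and -0.02 in Δβ, beside 0.00 over all genes in both. Without WT SP replicate 3, limma called 5.21% of all genes between organs in WT, 4.23% of all genes being higher in SP, and 1 member, Tyk2, at 0.52 (SE 0.13, limma adjusted p = 0.0490), followed by Jak1 at 0.53 (SE 0.15, limma adjusted p = 0.0681). In Δβ the largest organ difference of the 8 was 0.31 (SE 0.19) for Jak3, and 0 members were marked at an unadjusted p under 0.05 (1.77% of all genes). Over both genotypes, Jak3 was 0.33 (SE 0.14) and Tyk2 0.28 (SE 0.11) higher in SP on the log2 scale, each with a limma adjusted p of 0.845 and an unadjusted p under 0.05, which 5.76% of all genes reached.

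**Figure D3:**
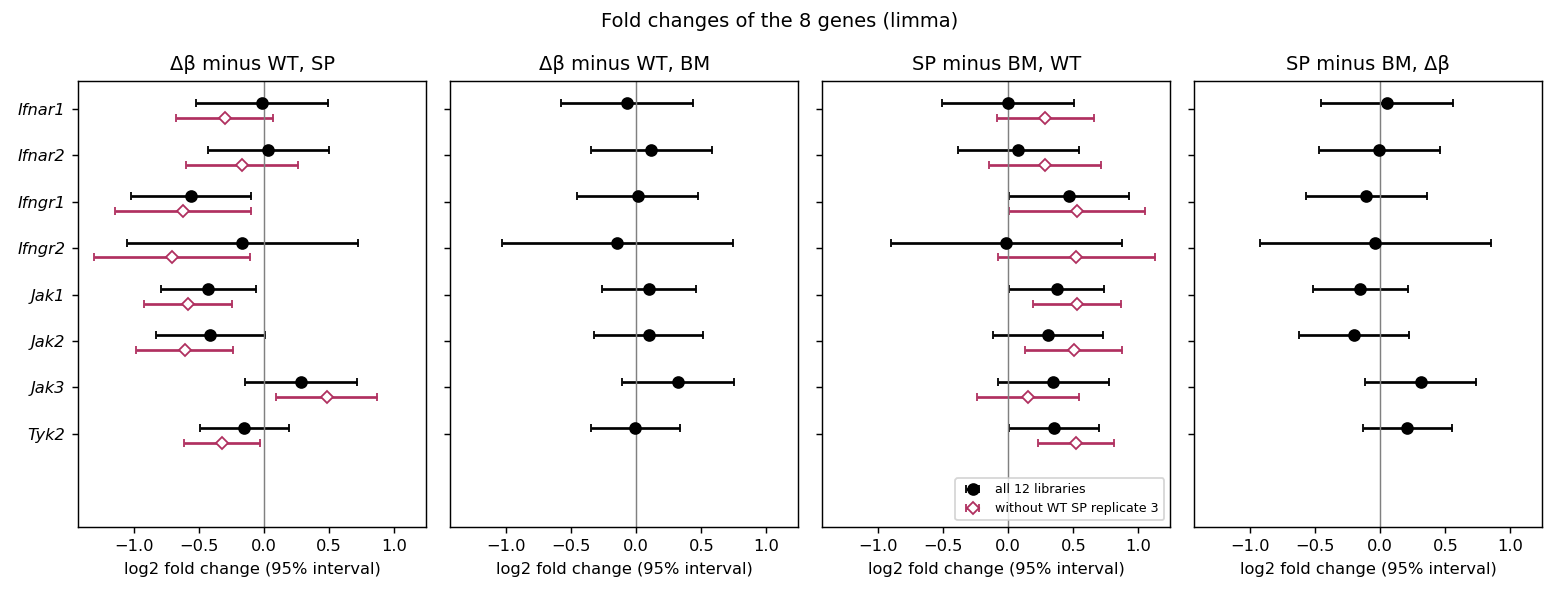
Log2 fold changes of the 8 genes with 95% intervals from limma, for Δβ minus WT in SP and BM and for SP minus BM in WT and Δβ, with filled circles for all 12 libraries and open diamonds for the comparisons that hold WT SP, repeated without WT SP replicate 3. Without that library Jak1 moves from -0.43 to -0.58 and Jak2 from -0.41 to -0.61 in SP, while all BM intervals include 0.

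Against the mean of each gene over the 12 libraries, 7 of the 8 members were above it in WT SP replicate 1 (median log2 deviation 0.51), in WT SP replicate 2 (0.22) and in Δβ BM replicate 1 (0.18). In Δβ SP replicate 2 and Δβ BM replicate 3, 7 of the 8 were below it (median -0.21 and -0.25). The members were split in Δβ SP replicate 1, with 5 above and 3 below, and in WT BM replicate 1 and Δβ BM replicate 2, with 3 above and 5 below. WT SP replicate 3 was mixed, with Ifngr2 at -1.01, Ifnar1 at -0.56 and Ifnar2 at -0.41, but Ifngr1 at 0.25 and Jak3 at 0.41. The spread in WT SP exceeded that of the other groups for all 8 genes when SD is set against the mean, for instance 33.6% for Ifnar1 in WT SP against 11.6% to 16.6% elsewhere.

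**Figure D4:**
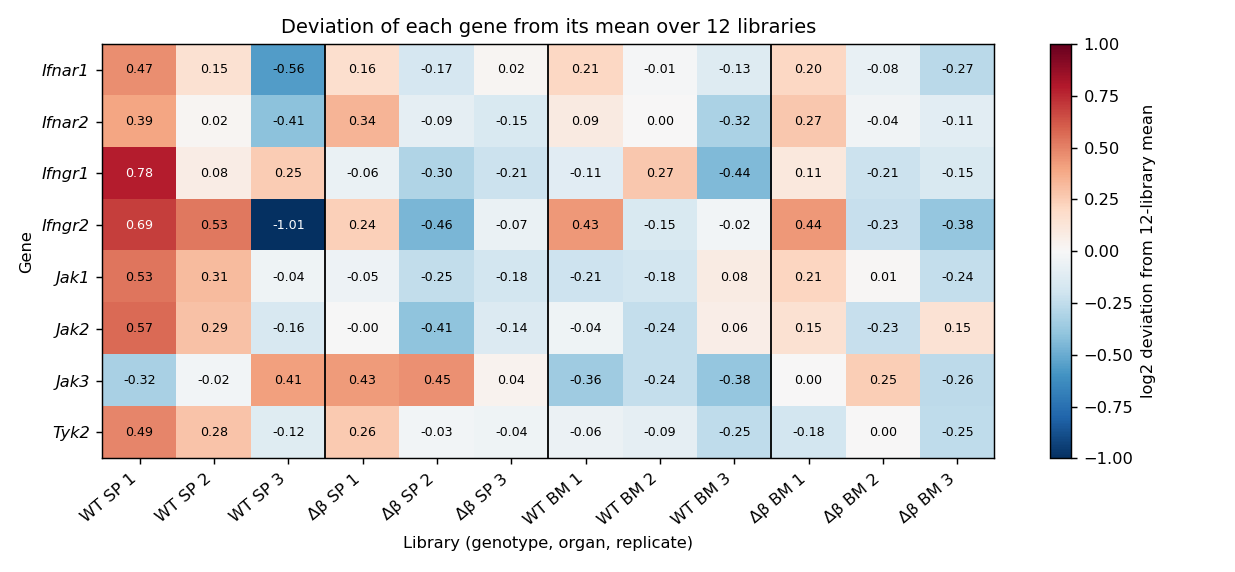
Log2 deviation of each of the 8 genes (lines) from its own mean over the 12 libraries (columns, by genotype, organ and replicate), with red above and blue below the mean. WT SP replicate 1 is high for 7 genes and low for Jak3, and WT SP replicate 3 holds the lowest value of the map, -1.01 for Ifngr2.

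As a description over the 12 libraries, which share groups and differ in depth, Pearson's r was 0.96 between Ifnar1 and Ifngr2, 0.87 between Ifnar1 and Ifnar2 and 0.79 between Ifnar1 and Il10rb. Without the 2 libraries farthest from the median of Ifnar1, which were WT SP replicates 1 and 3, these were 0.92, 0.73 and 0.50. The receptor chain outside the cluster, Ifngr1, had an r of 0.40 with Ifnar1 and 0.31 with Ifngr2. These were 0.53 and 0.43 without the same libraries, so that Ifngr1 was then about as close to Ifnar1 as Il10rb was. By r with Ifnar1 among all tested genes, Ifngr2 ranked 4, Ifnar2 165 and Il10rb 562. Among 8 tested genes that follow Ifngr2 on chromosome 16, r with Ifnar1 ran from -0.70 for Gart, a purine synthesis enzyme, to 0.66 for Itsn1, and these were -0.66 and 0.76 without the same libraries. Tmem50b had 0.26, which was 0.59 without them. Jak1 and Jak2 had an r of 0.80, which was 0.45 without the 2 libraries farthest for Jak1, WT SP replicates 1 and 2. Jak3 had an r of -0.53 with Jak2, which was -0.27 without the 2 libraries farthest for Jak2 (WT SP replicate 1 and Δβ SP replicate 2), and of -0.48 with Ifngr2, which was -0.19 without WT SP replicates 1 and 3. Its r with Tyk2 was 0.11.

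The gene most like each member over the 12 libraries was found among all tested genes. It was Adrbk2, which encodes a G protein-coupled receptor kinase, for both Ifnar1 (r = 0.980) and Ifngr2 (r = 0.979), and Ifngr2 was also close to the NF-κB subunit gene Rel (r = 0.975) and the AP-1 member Fosl2 (r = 0.974). For Ifnar2 it was Fcgrt, the neonatal Fc receptor (r = 0.962), and for Ifngr1 Gfi1b, a transcriptional repressor (r = 0.892, and 0.655 without WT SP replicate 1 and WT BM replicate 3). For Jak1 it was Fcer1g, the common Fc receptor γ chain (r = 0.980), followed by Cmpk1 (r = 0.970) and Alox5ap, which serves leukotriene synthesis (r = 0.966). For Jak2 it was Dock2 (r = 0.961), for Tyk2 Ap3d1 (r = 0.935) and for Jak3 the RNA gene Crnde (r = 0.920).

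Ratios between members were set by library, and these were chosen after values had been seen, so they carry no test. All are of normalized counts per kb of exons. Ifnar2 stayed at 2.26 to 2.92 times Ifnar1 in all 12 libraries. Ifngr1 was 19.7 times Ifngr2 in WT SP replicate 3 and 5.65 to 10.98 times in the other 11 libraries. Jak1 was 1.90 to 1.96 times Tyk2 in WT SP and 1.499 to 1.691 times in Δβ SP, without overlap, whereas in BM the ranges of 1.69 to 2.35 in WT and 1.87 to 2.45 in Δβ overlapped. Tyk2 was 0.943 to 1.028 times Jak2 in WT SP and 1.064 to 1.296 times in Δβ SP, also without overlap, and overlapped in BM. Jak1 was 1.81 to 2.02 times Jak2 in WT SP and 1.79 to 2.07 times in Δβ SP, with overlap. Of the summed per-kb level of the 4 JAKs, Jak1 took 35.9% to 44.4%, Jak2 17.5% to 26.7%, Tyk2 18.0% to 23.9% and Jak3 9.73% to 23.8%, the lowest and highest share of Jak3 being those of WT SP replicate 1 and Δβ SP replicate 2.

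On the ligand side, 21 IFN genes were in the table and none reached the mean of 10 normalized counts that the test required. Their sum was 0 to 10.9 normalized counts per library. Ifng accounted for the highest sum, with 10.9 normalized counts (10 reads) in Δβ BM replicate 1, and was at or below 3.20 in each of the other libraries, which is close to the 3 reads taken as the floor of detection. T, NK and B cell markers summed to 1058 normalized counts in Δβ BM replicate 1, in a range of 321 to 1228 over the libraries. Which cells gave the Ifng reads was not tested.

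Below the receptors, the STAT genes and Irf9 made up 8 tested genes, of which 0 passed limma's adjusted p in either organ. Without WT SP replicate 3, 2 of the 8 were lower in Δβ SP, beside 11.7% of all genes, Stat5b at -0.64 (SE 0.17, limma adjusted p = 0.0340) and Stat6 at -0.73 (SE 0.17, limma adjusted p = 0.0243). Stat2, which acts with IRF9 downstream of the type I receptor, had 786, 886 and 654 normalized counts in WT SP and 1128, 949.9 and 888 in Δβ SP, without overlap, with a log2 fold change of 0.35 (SE 0.17, limma adjusted p = 0.357). Of all genes, 7.92% were higher in Δβ SP without overlap. Stat3 itself had a log2 fold change of -0.32 in SP and -0.10 in BM (SE 0.16 each), and its groups overlapped.

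Most IFN-stimulated genes had positive values in both organs. Of 36 tested genes, 31 had a positive log2 fold change in SP (median 0.63, beside -0.16 for the 8 receptor and JAK genes) and 35 in BM (median 0.61, beside 0.05). limma's adjusted p called 0 of the 36 in SP and 1 in BM, beside 0.105% and 0.0697% of all genes. At a positive value and an unadjusted p under 0.05 it marked 16 and 14, beside 5.93% and 1.25% of all genes. DESeq2 called 11 and 4, beside 3.99% and 0.323% of all genes in either direction. Without WT SP replicate 3, 28 of the 36 were positive in SP (median 0.45) and limma called 7, all higher. In that fit it called 4.7% of all genes higher and 16.4% in either direction. Gbp2 was among the 7 (5.65, SE 1.47, limma adjusted p = 0.0305). The gene called in BM with all libraries was Ube2l6, which conjugates the ubiquitin-like ISG15 to proteins. It had 44, 14 and 44 normalized counts in WT BM and 544, 398 and 268 in Δβ BM (log2 fold change 3.65, SE 0.40, limma adjusted p = 0.00891). The guanylate-binding proteins had the largest differences without overlap, with log2 fold changes in SP of 4.84 for Gbp2, 3.80 for Gbp4 and 3.64 for Gbp5 (limma adjusted p of 0.218, 0.225 and 0.218). Of all genes, 7.92% were higher in Δβ SP without overlap. The list's mean deviation was 1.09, 1.17 and 0.23 in the Δβ SP libraries and 0.74, 0.70 and -0.94 in the Δβ BM libraries, so that Δβ BM replicate 3 lay with WT BM (-0.55 to -0.95). Over the 12 libraries the r of the members with this mean ran from -0.21 (Jak2) to 0.45 (Ifnar2), except for Jak3 at 0.73. Without Δβ SP replicates 1 and 2 it was 0.53 for Jak3 and ran from 0.06 (Jak2) to 0.44 (Ifnar2) for the others, with Jak1 at 0.40.

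Of 20 tested inhibitors of JAK-STAT signaling, 0 passed limma's adjusted p in either organ, and the median log2 fold change was -0.18 in SP and -0.06 in BM. Without WT SP replicate 3, 6 of the 20 were lower in Δβ SP, beside 11.7% of all genes in that fit, which were Socs3, Ptpn1, Ptpn6, Ptprc, Sh2b3 and Cbl, and the median was -0.28. Socs3, a feedback inhibitor of the IL-6 and G-CSF receptors, had 1442, 321 and 175 normalized counts in WT SP and 84, 66 and 52 in Δβ SP, without overlap (log2 fold change -2.69, SE 0.77, limma adjusted p = 0.218, DESeq2 adjusted p = 0.00225). Ptpn11, which encodes the phosphatase SHP2, lay at -0.22 (SE 0.13) in SP without overlap. Of all genes, 9.37% were lower in Δβ SP without overlap. In BM, Btrc (-0.35), Socs4 (-0.25) and Ptpn6 (-0.17) had groups without overlap, each with a limma adjusted p of 0.99997. Of all genes, 4.13% were lower in Δβ BM without overlap.

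Among the 5 tested genes of the same receptor family, 0 passed limma's adjusted p in either organ. At an unadjusted p under 0.05 limma marked 2 in SP, both lower, beside 8.96% of all genes being lower. Without WT SP replicate 3, where 16.4% of all genes passed, 1 passed in SP, Ifnlr1 (-2.12, SE 0.48, limma adjusted p = 0.0199). Ifnlr1, the ligand-binding chain of the type III IFN receptor, had 243, 380.5 and 84 normalized counts in WT SP and 76, 73 and 59.8 in Δβ SP, without overlap (log2 fold change -1.51, SE 0.56, limma adjusted p = 0.278, DESeq2 adjusted p = 0.0456). Il10rb, which pairs with it and sits within the receptor cluster, had a log2 fold change of 0.07 (SE 0.15) in SP. Il20rb stood at -1.26 (SE 0.50) without overlap and Il10ra at -1.15 (SE 0.77) with overlap. Of 18 other cytokine receptor chains that use JAKs, 0 passed and the median was -0.16 in SP and 0.01 in BM. Without WT SP replicate 3, 2 of the 18 were lower in Δβ SP, beside 11.7% of all genes in that fit. These were Il6ra (-1.21, SE 0.24, limma adjusted p = 0.0147) and Il13ra1 (-1.66, SE 0.36, limma adjusted p = 0.0183). Il2rg, the partner of JAK3, had 819, 552 and 691 normalized counts in WT SP and 422, 519 and 419.6 in Δβ SP, without overlap (log2 fold change -0.59, SE 0.22, limma adjusted p = 0.276), while Jak3 had a positive value in the same libraries. Lower values in Δβ SP without overlap, as for Ifnlr1, Il20rb and Il2rg, were found in 9.37% of all genes.

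**Figure D5:**
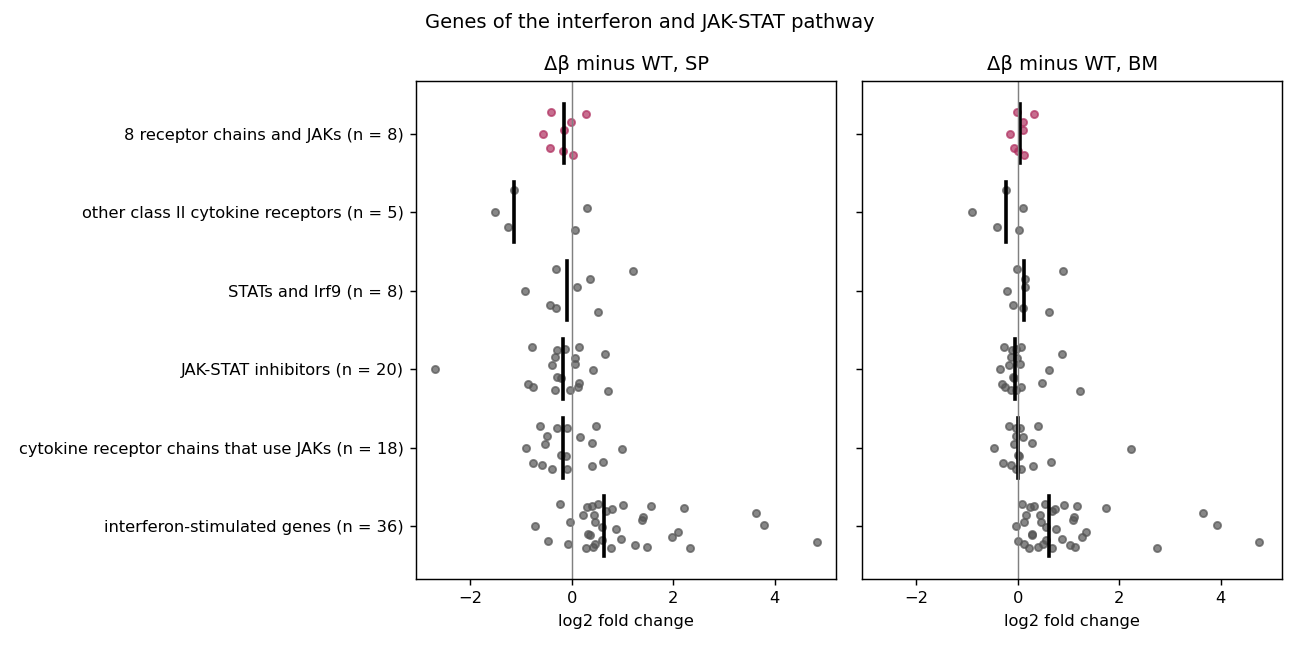
Log2 fold changes of Δβ against WT in SP and BM for every tested gene of 6 groups, with 1 point per gene and a black line at each group's median. The 8 receptor chains and JAKs lie between -0.56 and 0.32 in both panels, and the 36 IFN-stimulated genes reach 4.84.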

How the data were processed

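RNA of Venus+ blasts was sequenced after poly-A enrichment, with 3 libraries per genotype and organ. The authors deposited a normalized signal per gene and library, which is the gene count after division by the size factor of the library. The submitters' processing notes name FastQC, STAR, featureCounts, DESeq2 and GRCm38 (mm10). All values (100%, relative tolerance 1e-06) were whole multiples of the library's smallest value, which gave whole reads. The 6 columns that no sample label describes were not used.

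In R 4.3.3, limma 3.58.1 (trend) was applied to genes with a mean of at least 10, on log2(value + 1), with 1 mean per group and Benjamini-Hochberg adjustment over 11476 genes, so that fold changes are on that scale. edgeR 4.0.16 (quasi-likelihood) and DESeq2 1.42.0 on the whole reads were alternatives. The scripts were tested on simulated counts. Lengths come from GENCODE M21. Apart from the 8 genes and Stat3, named genes are those of a pathway list past the threshold, those with the largest fold changes without overlap (at most 3 per list and organ), any of a short list, the most alike genes (r over 12 libraries), and neighbours on chromosome 16. Members and lists were chosen with earlier results of these data known. Values of 1 gene of the lists are not reported here.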

Additional observations from a re-analysis of the deposited data

How the results depend on the processing

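Under 14 other settings (pseudocounts, filters, scalings, tools, 6 libraries alone, the replicate block and others) 0 members were called in the comparisons fitted. Among the 14 was an added cut of 0.5 on the absolute log2 fold change, which could only give 0, as the main fit called 0 members. The 6 libraries alone, the 12 libraries as separate units and the block as a random effect were fitted for some comparisons only. Among 12 fits that left out 1 library, the number called ranged from 0 to 2 between genotypes in SP and from 0 to 1 between organs in WT, the highest being without WT SP replicate 3, which leaves 2 libraries in that group. Over all genes, limma called 12 in SP, against 457 by DESeq2, 4 by edgeR, 2 with the replicate block and 1 to 1884 with 1 library left out. In BM it called 8, against 37 by DESeq2, 5 with the block and 1 to 13 with 1 library left out. Between organs in WT it called 0, against 111 by DESeq2. Over both organs it called 17 on the averaged values and 55 with the block. With the 12 libraries as separate units, limma called 48, edgeR 48 and DESeq2 323. Leaving out 1 library, which there also dropped the other organ's library of the same genotype and number, gave 2 to 27. SP and BM libraries of one number were averaged in the main comparison over both organs because they may come from one animal, which was not stated. Elsewhere the replicate numbers were not taken to pair samples, since the labels do not say that they do. In Δβ, r of the deviations of SP and BM libraries was 0.61 to 0.66 for equal numbers and -0.49 to -0.18 for unequal numbers. In WT it was -0.24 to -0.01 for equal numbers and -0.21 to 0.30 for unequal numbers.

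Sign changes occurred for members whose value was smaller in size than its SE. For genotype in SP, Ifnar1 (main -0.02) was 0.016 with TMM factors and 0.11 with quantile normalization. For genotype in BM, Tyk2 was 0.020 with quantile normalization and 0.0010 with edgeR, and Ifngr1 was -0.0055 with edgeR and -0.013 with DESeq2. Between organs in WT, Ifnar2 was -0.018 with quantile normalization, Ifnar1 was 0.031 with edgeR and 0.042 with DESeq2, and Ifngr2 was 0.11 with edgeR and 0.13 with DESeq2. Between organs in Δβ, Ifnar2 was 0.0026 with TMM factors, 0.0033 with quantile normalization, 0.010 with edgeR and 0.018 with DESeq2. With 1 library left out, genotype in SP ranged from -0.31 to 0.21 for Ifnar1, from -0.17 to 0.23 for Ifnar2 and from -0.71 to 0.14 for Ifngr2. Genotype in BM ranged from -0.19 to 0.041 for Ifnar1, -0.0052 to 0.20 for Ifnar2, -0.16 to 0.19 for Ifngr1, -0.39 to 0.029 for Ifngr2, -0.013 to 0.21 for Jak1 and -0.082 to 0.047 for Tyk2. Organ in WT ranged from -0.23 to 0.29 for Ifnar1, -0.12 to 0.28 for Ifnar2 and -0.32 to 0.52 for Ifngr2, and organ in Δβ from -0.060 to 0.18 for Ifnar1, -0.16 to 0.11 for Ifnar2 and -0.20 to 0.21 for Ifngr2. The cause was not tested. Each member had at least 417 reads in every library. The pathway lists were repeated without WT SP replicate 3 as an alternative chosen after seeing the data.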
